A study of Homo sapiens with 4 samples.

Results

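Chromosome 12 was examined as the set of all its 200 kb bins and of the contacts among them, with its short (p) and long (q) arms described separately. It was chosen by the small difference of its compartment strength between senescent and growing cells, so that difference and every value built from the same contacts are given as a description and support nothing. The chromosome holds 657 of the 14444 bins of the genome, of which 641 were kept because at least 50% of their pairs on the chromosome had a value in every map. The p arm gave 173 kept bins of 175 and the q arm 468 of 481, and the 1 bin inside the centromere gap was not kept. In GRCh37 the p arm runs over 34.9 Mb and the q arm over 96.0 Mb, on either side of an assembly gap at chr12:34856695-37856694.

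The cells were IMR90, normal human diploid lung fibroblasts, carrying an oncogenic HRAS fused to an oestrogen receptor domain (ER:HRAS G12V). In the Grow condition the oncogene was not switched on, and in OIS (oncogene-induced senescence) the cells had 100 nM 4OHT, the ligand of the fusion protein, for 6 days. Grow-shA1 and OIS-shA1 cells also carried a vector with a short hairpin against HMGA1 (pMSCV miR shHMGA1), and each of these maps pools 2 samples. The maps without the hairpin were made earlier by the same group and belong to no sample of this series, so the hairpin and the data set cannot be told apart in any comparison of a map with the hairpin against a map without it. Each condition had 1 map, no test between conditions was possible, and every difference below is a difference between maps whose spread over replicates is unknown. The maps hold no transcript levels, so neither the knockdown nor the identity of the cells could be checked in them.

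Chromatin folds into an active A compartment and an inactive B compartment, and stretches of the same compartment touch each other more than their distance along the chromosome alone would give. Senescent fibroblasts can gather their heterochromatin into dense bodies, the senescence-associated heterochromatic foci (SAHF). HMGA1 is an abundant chromatin protein that binds the minor groove of AT-rich DNA and is a known component of those foci. Hi-C reads such contacts by cutting fixed chromatin with a restriction enzyme, ligating ends that lie close in the nucleus and sequencing the joined fragments.

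HindIII, the enzyme of the assay, cuts at AAGCTT, and contacts are read at such sites. The 200 bases around the first edge of 4 bins are shown because these bins had the largest positive and the largest negative OIS minus Grow difference of their contact with the B compartment on each arm. All are the plus strand of GRCh37, and capitals mark the HindIII sites.
p arm, higher in OIS (chr12:32599963-32600162): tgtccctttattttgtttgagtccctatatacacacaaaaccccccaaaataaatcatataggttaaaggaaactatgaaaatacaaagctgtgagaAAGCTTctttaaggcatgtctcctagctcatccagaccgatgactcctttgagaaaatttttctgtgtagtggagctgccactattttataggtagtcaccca
p arm, lower in OIS (chr12:3599268-3599467): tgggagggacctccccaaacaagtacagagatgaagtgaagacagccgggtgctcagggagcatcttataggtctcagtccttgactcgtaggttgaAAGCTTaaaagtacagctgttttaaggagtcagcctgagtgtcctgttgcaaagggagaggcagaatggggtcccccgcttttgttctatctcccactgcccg
q arm, higher in OIS (chr12:43399916-43400115): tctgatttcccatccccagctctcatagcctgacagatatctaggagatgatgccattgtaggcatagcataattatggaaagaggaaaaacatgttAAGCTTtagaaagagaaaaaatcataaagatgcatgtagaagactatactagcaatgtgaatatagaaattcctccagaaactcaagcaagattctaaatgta
q arm, lower in OIS (chr12:65195949-65196148): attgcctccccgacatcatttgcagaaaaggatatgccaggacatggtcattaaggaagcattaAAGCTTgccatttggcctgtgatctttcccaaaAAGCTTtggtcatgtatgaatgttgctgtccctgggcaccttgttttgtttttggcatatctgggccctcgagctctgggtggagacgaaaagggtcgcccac
The G and C bases made up 38% and 35.5% of the windows of the bins with higher contact, against 52% and 48.5% of those with lower contact. Over the whole bins the GC content was 40.3% and 36.6%, against 46.9% and 41.0%.

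Each value in the maps is a distance-corrected contact score of a pair of bins, above 0 where the pair met more often than the mean pair at its distance. The analysed files give scores without read counts, and the share of possible pairs with a value served as the measure of depth. The study's text gives fewer reads for OIS-shA1 than for Grow-shA1. Of the 199218 possible distal pairs of chromosome 12 (pairs over 2 Mb apart), 89.4% had a value in Grow, 84.2% in Grow-shA1, 79.9% in OIS and 78.8% in OIS-shA1. The share was lower in OIS than in Grow by the most for pairs of an A with a B bin (-13.3 percentage points) and by less for A-A (-5.07 points) and B-B pairs (-6.22 points). Class means were taken over the 130230 distal pairs with a value in all 4 maps, which are 49.1% of the possible A-B pairs, 81.6% of the A-A pairs and 80.2% of the B-B pairs. The part of this uneven listing in the results was not tested, and the values with unlisted pairs set to 0 are given where they change a direction.

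The compartment score of a bin, taken from principal component 1 of the chromosome's correlation matrix, marked 254 bins as A (above 0) and 387 as B in the Grow map. A bins had a median GC content of 41.6% and 11.4 protein-coding genes per Mb, and B bins 38.4% and 5.36 genes per Mb. The contrast in genes was larger on the q arm (12.4 per Mb in A and 4.66 in B) than on the p arm (8.93 and 7.49), where the gene-rich natural killer receptor, bitter taste receptor and salivary proline-rich protein clusters lie in B bins. The score of the Grow map correlated with GC content over the 641 bins at r = 0.388 and that of the OIS map at r = 0.391. Neighbouring bins share most of their contacts, so these correlations describe the chromosome and carry no p-value.

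The number of A bins was 254 in Grow, 265 in Grow-shA1, 317 in OIS and 315 in OIS-shA1. Both maps of senescent cells thus had more A bins than both maps of growing cells. The scores of OIS and Grow correlated at r = 0.950 on the p arm (173 bins) and 0.908 on the q arm (468 bins), those of OIS-shA1 and OIS at 0.988 and 0.983. From Grow to OIS, 11 p arm and 54 q arm bins passed from B to A, 10.1% of the kept bins of chromosome 12, beside 8.9% of the 13567 kept bins of the 22 autosomes and X. In the opposite direction 2 bins passed (0.312%, with 0.818% over all chromosomes).

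**Figure D1:**
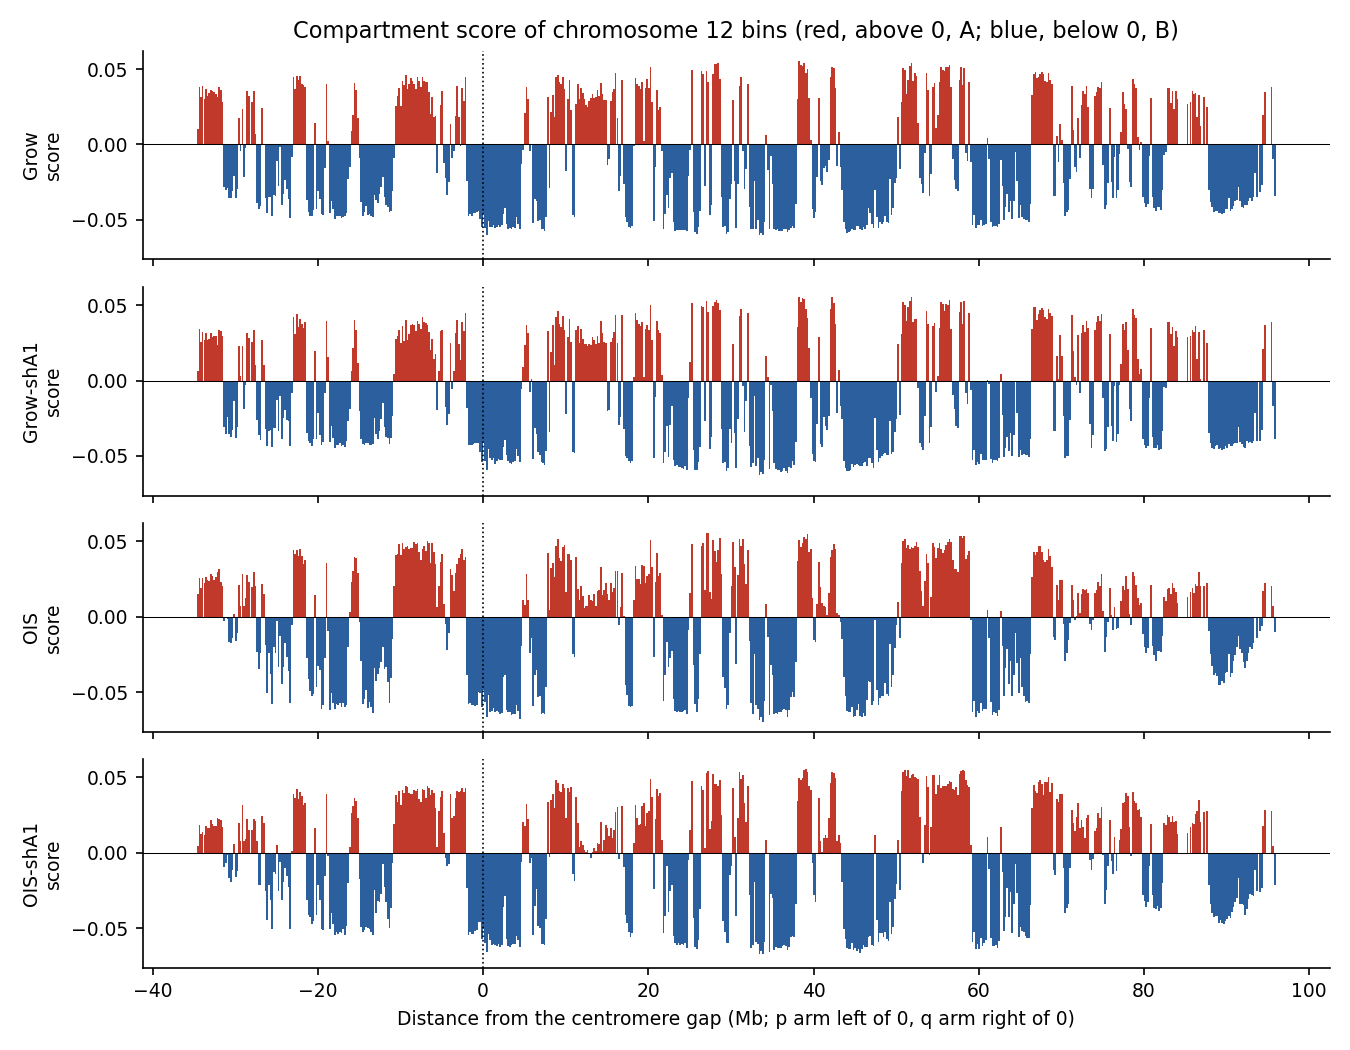
Compartment score of each kept bin of chromosome 12 in the 4 maps against its distance from the centromere gap in Mb (p arm at negative, q arm at positive distances), with A bins in red and B bins in blue. The long B stretches on either side of the gap had clearly negative scores in every map, whereas scores near the ends of both arms lay closer to 0 in OIS and OIS-shA1 than in Grow and Grow-shA1.

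With the hairpin, 54 bins were B in Grow-shA1 and A in OIS-shA1 (8.42%, beside 7.81% of all kept bins) and 4 passed from A to B (0.624%, beside 1.3%). Of the 65 bins that passed to A without the hairpin and the 54 that did so with it, 44 were the same bins, 67.7% of the first set and 81.5% of the second. Between OIS-shA1 and OIS 9 bins differed as B to A (1.40%, beside 1.47%) and 11 as A to B (1.72%, beside 3.07%). Between Grow-shA1 and Grow the counts were 14 (2.18%, beside 1.64%) and 3 (0.468%, beside 1.66%). In every comparison the A to B share of chromosome 12 was below that of all kept bins. Many of the bins had scores close to the boundary, since 23 of the 67 sign changes of OIS minus Grow remained among bins at least 0.01 from 0 in both maps. Just inside the boundary, 17 bins had Grow scores from 0 to 0.01, and just outside it 31 bins had scores from -0.01 to 0.

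The bins that passed from B to A in OIS lay mostly beside A chromatin and had a higher median GC content than the rest of B. Their Grow scores were also nearer the boundary, with a median of -0.0153 against -0.0452 in the other B bins. The median GC content of the changed bins was 40.8% against 38.0% in the other B bins, and they held 99 protein-coding genes. On the q arm they carried 1.59 genes per bin against 0.780 in the other B bins, whereas on the p arm they carried 1.18 against 1.52. Of the 65 bins, 51 were next to a bin that was A in Grow, beside 50 of the 322 other B bins. The longest run covered 6 bins at chr12:78600170-79798725 and held the start of SYT1, the calcium sensor of synaptic vesicle release, and its mean score was -0.0184 in Grow and 0.00993 in OIS. A run of 4 bins at chr12:90597932-91402397 included EPYC, a small leucine-rich proteoglycan gene, and 3 bins at chr12:69199429-69801070 held CPM, MDM2, CPSF6, LYZ and YEATS4. The runs of SYT1 and EPYC each had 35.5% GC, below the median of the other B bins. Another run of 4 bins, at chr12:94597180-95399845, had 41.6%. Another pair of adjacent bins, at chr12:52798557-53200425, held the type II keratin genes from KRT5 to KRT77.

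Compartment strength, which averages the A-A with the B-B score of distal pairs and subtracts their A-B score, was 0.752 in Grow, 0.774 in Grow-shA1, 0.757 in OIS and 0.745 in OIS-shA1 for the whole chromosome. All 4 maps lay within a narrow band, with OIS minus Grow at 0.00466, OIS-shA1 minus Grow-shA1 at -0.0298, OIS-shA1 minus OIS at -0.0124 and Grow-shA1 minus Grow at 0.0221 score units. OIS minus Grow of chromosome 12 was the third lowest of 23 chromosomes, above -0.0291 on chromosome 17 and 0.000600 on chromosome 1, and the median chromosome had 0.0817. These are the values that chose the chromosome. Chromosomes 10 and 11, of nearly the same length, had 0.0549 and 0.0734. In the Grow map itself chromosome 12 was the median chromosome, with 0.752, and in OIS it was the fifth lowest. The value depended on the definition, since over the bins in the top 20% and the bottom 20% of Grow scores OIS minus Grow was 0.333, while with each map divided by its SD at the same distance it was -0.170.

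Distal A-A pairs differed by 0.00557 between OIS and Grow on chromosome 12, with a median of 0.00715 over the 23 chromosomes, and distal B-B pairs by -0.0960, with a median of -0.0974. Distal A-B pairs differed by -0.0499, the second highest value of 23, where the median was -0.122 and the range ran from -0.287 on chromosome 16 to -0.0365 on chromosome 1. With the hairpin the A-B difference was -0.0121, again the second highest of 23, with a median of -0.0612. The A-A and B-B values of chromosome 12 were thus close to the medians, and its A-B value was less negative than that of 21 chromosomes. The directions of the class means did not hold in every setting. The A-B difference was 0.0258 with all maps brought to a common centre, 0.0296 after division by the SD and 0.0748 with unlisted pairs as 0, and the B-B difference was 0.126 with the compartments of each map and 0.195 over the 20% of bins at either end.

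**Figure D2:**
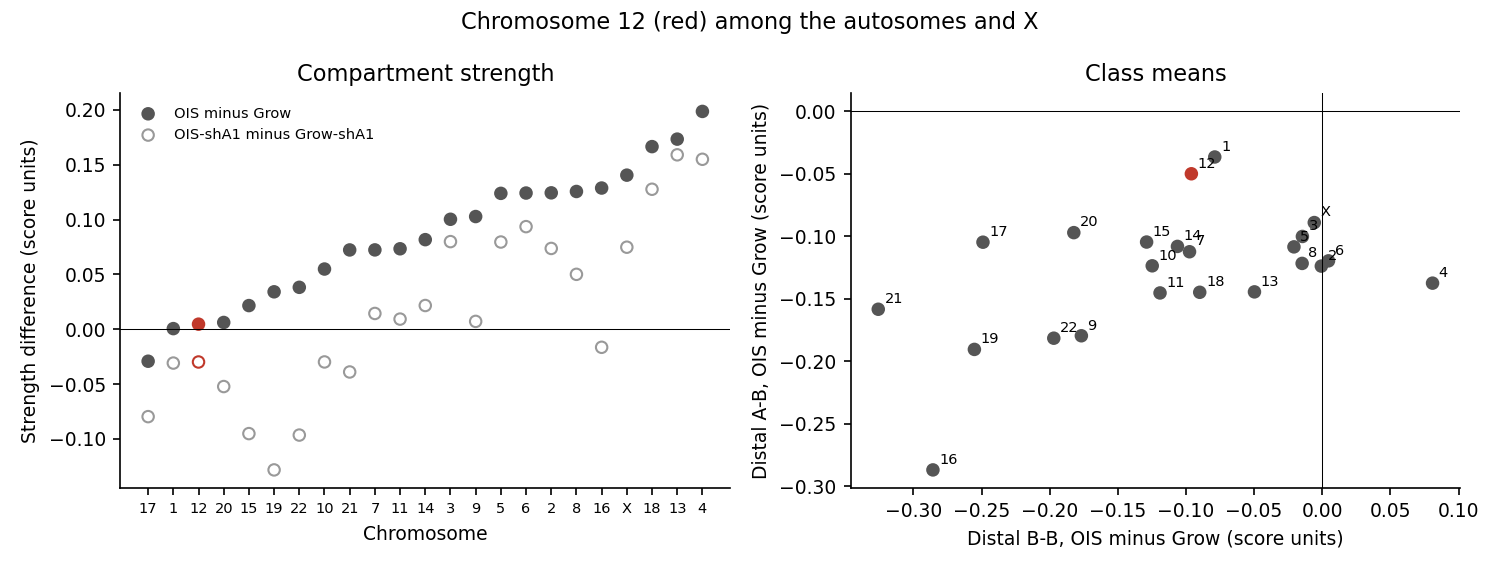
Left, difference of compartment strength in score units for each of the 22 autosomes and X in order of OIS minus Grow (filled) with OIS-shA1 minus Grow-shA1 beside it (open). Right, OIS minus Grow of distal A-B pairs against that of distal B-B pairs, 1 point per chromosome. Chromosome 12 (red) is the third from the left with 0.00466, and near the top of the right panel with an A-B difference of -0.0499.

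The arms differed from each other. Within the p arm strength was 0.976 in Grow, 1.01 in Grow-shA1, 1.07 in OIS and 1.02 in OIS-shA1, a difference of 0.0955 between OIS and Grow and of 0.0104 between OIS-shA1 and Grow-shA1. Within the q arm it was 0.842 in Grow, 0.885 in Grow-shA1, 0.828 in OIS and 0.850 in OIS-shA1, with differences of -0.0144 and -0.0352. Between the arms it was 0.531 in Grow, 0.514 in Grow-shA1, 0.512 in OIS and 0.458 in OIS-shA1, with differences of -0.0186 and -0.0552. Of the 3 sets of pairs, those within the p arm thus had a positive OIS minus Grow difference, but its direction did not hold under 2 alternatives, since it was -0.0802 after division by the SD and -0.0110 with unlisted pairs set to 0. The negative values turned as well, to 0.348 within the q arm and 0.143 between the arms over the 20% of bins at either end, and to 0.0742 and 0.0736 with the compartments of each map.

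Within the p arm, B-B pairs had a mean score of 0.866 in Grow, 0.778 in Grow-shA1, 0.635 in OIS and 0.551 in OIS-shA1 (4021 pairs). The OIS minus Grow difference was -0.231 (SD over pairs 0.556), while A-B pairs, at -0.369 in Grow and -0.553 in OIS, differed by -0.184 (SD 0.629, 5791 pairs) and A-A pairs by 0.0546 (SD 0.484, 2408 pairs). Both B-B and A-B means were lower in OIS here and in the 8 alternatives, from -0.341 to -0.0462 for B-B and from -0.752 to -0.0667 for A-B.

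Within the q arm, B-B pairs had 0.709 in Grow, 0.664 in Grow-shA1, 0.552 in OIS and 0.502 in OIS-shA1 (34716 pairs), a difference of -0.157 between OIS and Grow (SD 0.689). The q arm A-B pairs differed by -0.0677 and its A-A pairs by -0.00667. On this arm the B-B difference turned to 0.125 with the compartments of each map and 0.185 over the 20% of bins at either end, and the A-B difference to 0.0203 with a common centre, 0.0107 after division by the SD and 0.0920 with unlisted pairs as 0.

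Contacts between the arms were higher in OIS for A-B as for B-B pairs. A-B pairs had -0.292 in Grow, -0.344 in Grow-shA1, -0.246 in OIS and -0.276 in OIS-shA1 (13333 pairs), 0.0457 higher in OIS than in Grow (SD 0.544), and A-A pairs differed by 0.010. B-B pairs that joined the arms had 0.319 in Grow, 0.219 in Grow-shA1, 0.363 in OIS and 0.214 in OIS-shA1 (19063 pairs), 0.0441 higher in OIS than in Grow (SD 0.612), but -0.0268 after division by the SD, and -0.149 in OIS-shA1 relative to OIS (SD 0.596). Within the arms the OIS-shA1 minus OIS difference of B-B pairs was -0.0835 (p) and -0.0501 (q). Grow-shA1 minus Grow of the pairs between arms was -0.0994, also below 0.

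**Figure D3:**
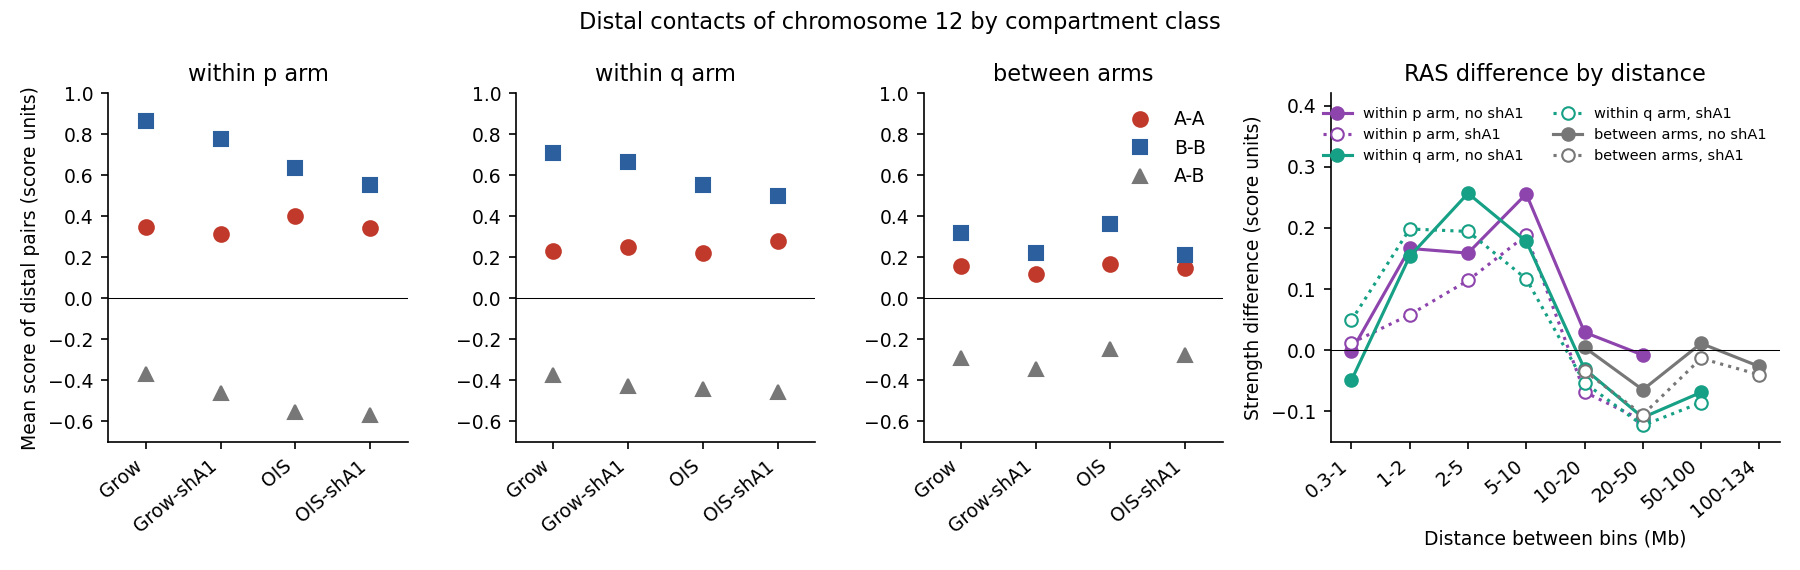
Left 3 panels, mean score of distal A-A, B-B and A-B pairs within the p arm, within the q arm and between the arms in each map, with 1 value per map and no error bar. Right, OIS minus Grow (filled, solid) and OIS-shA1 minus Grow-shA1 (open, dotted) of the compartment strength by distance between bins in Mb. B-B scores within both arms were lower in the maps of senescent cells, and the strength difference was positive at 1 to 10 Mb on both arms and mostly below 0 beyond 20 Mb.

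On both arms the difference was highest at distances between 2 and 10 Mb. Within the p arm, strength in OIS minus Grow was 0.159 at 2 to 5 Mb, next 0.256 at 5 to 10 Mb, then 0.0292 at 10 to 20 Mb, and lastly -0.00810 at 20 to 50 Mb. Within the q arm it was 0.257, 0.178, -0.0308 and -0.110 at the same distances and -0.0691 at 50 to 100 Mb. Strength was thus higher in OIS at 1 to 10 Mb on both arms, and lower in OIS beyond 10 Mb on the q arm. At the shortest distances, 0.3 to 1 Mb, the difference was -0.00164 on the p arm and -0.0493 on the q arm. With the hairpin the difference went from 0.194 at 2 to 5 Mb to -0.123 at 20 to 50 Mb on the q arm. Compared with the other chromosomes, chromosome 12 had 0.211 at 2 to 10 Mb (median of 23 chromosomes 0.284), -0.0111 at 10 to 20 Mb (median 0.108) and -0.0943 at 20 to 50 Mb (median -0.0133 of 22), the third lowest at that last distance. At 2 Mb or less, B-B pairs were lower in OIS by a difference of -0.248 on the p arm and -0.120 on the q arm.

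The B compartment of chromosome 12 divided by base composition. When the 387 B bins were split at their median GC content (38.4%), distal pairs of AT-rich B bins with each other had 0.816 in Grow, 0.671 in Grow-shA1, 1.03 in OIS and 0.815 in OIS-shA1 (17008 pairs). They were 0.210 higher in OIS than in Grow (SD over pairs 0.635). Pairs of an AT-rich with a GC-richer B bin had 0.457 in Grow, 0.446 in Grow-shA1, 0.157 in OIS and 0.171 in OIS-shA1 (27314 pairs), an OIS minus Grow difference of -0.300 (SD 0.640). Pairs of GC-richer B bins differed by -0.0695 (SD 0.590, 13478 pairs). The mean B-B difference of -0.0960 thus summed over contacts that differed in opposite directions.

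The pairs of AT-rich B bins differed in OIS minus Grow by -0.0327 within the p arm, 0.186 within the q arm and 0.279 between the arms, and pairs of AT-rich with GC-richer B bins by -0.407, -0.377 and -0.121. Pairs of GC-richer B bins differed by -0.00895, -0.0987 and -0.0123. Mixed pairs thus had the lowest difference in each of the 3, and AT-rich pairs the highest within the q arm and between the arms but not within the p arm. The size for the whole chromosome depended on the setting, at 0.0954 for AT-rich pairs after division by the SD and 0.10 when the bins were split at 40% GC. With the hairpin the RAS difference of the AT-rich pairs was 0.144 and that of the mixed pairs -0.274. OIS-shA1 relative to OIS was -0.211 for AT-rich pairs (SD 0.562), 0.0140 for mixed pairs and -0.127 for GC-richer pairs (SD 0.616). The classes ranked differently by arm, since AT-rich pairs had -0.0297 within the p arm, -0.167 within the q arm and -0.296 between the arms, and GC-richer pairs -0.316, -0.126 and -0.0906. In growing cells the hairpin map was lower too, by a difference of -0.144 for AT-rich and -0.0113 for mixed pairs. The split was chosen after values of the chromosome had been seen, and it is not particular to chromosome 12. Split in the same way, all 23 chromosomes had a higher OIS minus Grow difference for AT-rich than for mixed pairs, with a gap of 0.510 on chromosome 12 and a median of 0.447. The difference of AT-rich pairs itself was above 0 on 15 of the 23. It ran from -0.303 on chromosome 16 to 0.447 on chromosome 4, with a median of 0.193.

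For single bins, the change of contact with the B compartment was the mean OIS minus Grow difference over a bin's distal pairs with B bins. Over B bins it correlated with GC content at r = -0.694 on the p arm (97 bins) and -0.500 on the q arm (290 bins), whereas over A bins r was -0.145 (76 bins) and 0.00547 (178 bins). The number of HindIII sites per bin, which limits where a bin can be read, correlated with the change over all bins at r = -0.0814 (p) and -0.0881 (q). Over the same bins, A and B together, GC content had r = -0.445 (p) and -0.194 (q). For OIS-shA1 minus OIS the correlation with GC content over B bins was r = 0.592 on the p arm and 0.225 on the q arm. That difference subtracts the OIS map which OIS minus Grow adds, so the opposite sign carries no separate weight. In growing cells, Grow-shA1 minus Grow had r = 0.338 (p) and 0.376 (q) over the same B bins. For OIS-shA1 minus Grow-shA1 the values were -0.626 and -0.575. All these points come from the same 4 maps and share neighbours, so they are not independent.

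In OIS minus Grow, 27 bins of chromosome 12 had a difference of at least 0.2 score units upwards (4.21%, beside 4.57% of all kept bins) and 155 downwards (24.2%, beside 27.0%). Downward bins made up 16.2% of the p arm and 27.1% of the q arm. With the hairpin, OIS-shA1 minus Grow-shA1 gave 27 upwards (4.21%, beside 6.21%) and 157 downwards (24.5%, beside 23.9%). For OIS-shA1 minus OIS the counts were 8 (1.25%, beside 3.44%) and 55 (8.58%, beside 9.32%), and for Grow-shA1 minus Grow 1 (0.156%, beside 0.538%) and 15 (2.34%, beside 4.57%). The p arm held 23 of the 55 downward bins of OIS-shA1 minus OIS, 13.3% of its bins against 6.84% of the q arm bins. The median of OIS-shA1 minus OIS was -0.0721 over all p arm bins and -0.0432 over all q arm bins, on either side of -0.0502 over all kept bins of the genome (SD 0.126). The p arm B bins had a median of -0.123 (SD over bins 0.0858) and the q arm B bins -0.0688 (SD 0.0959).

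**Figure D4:**
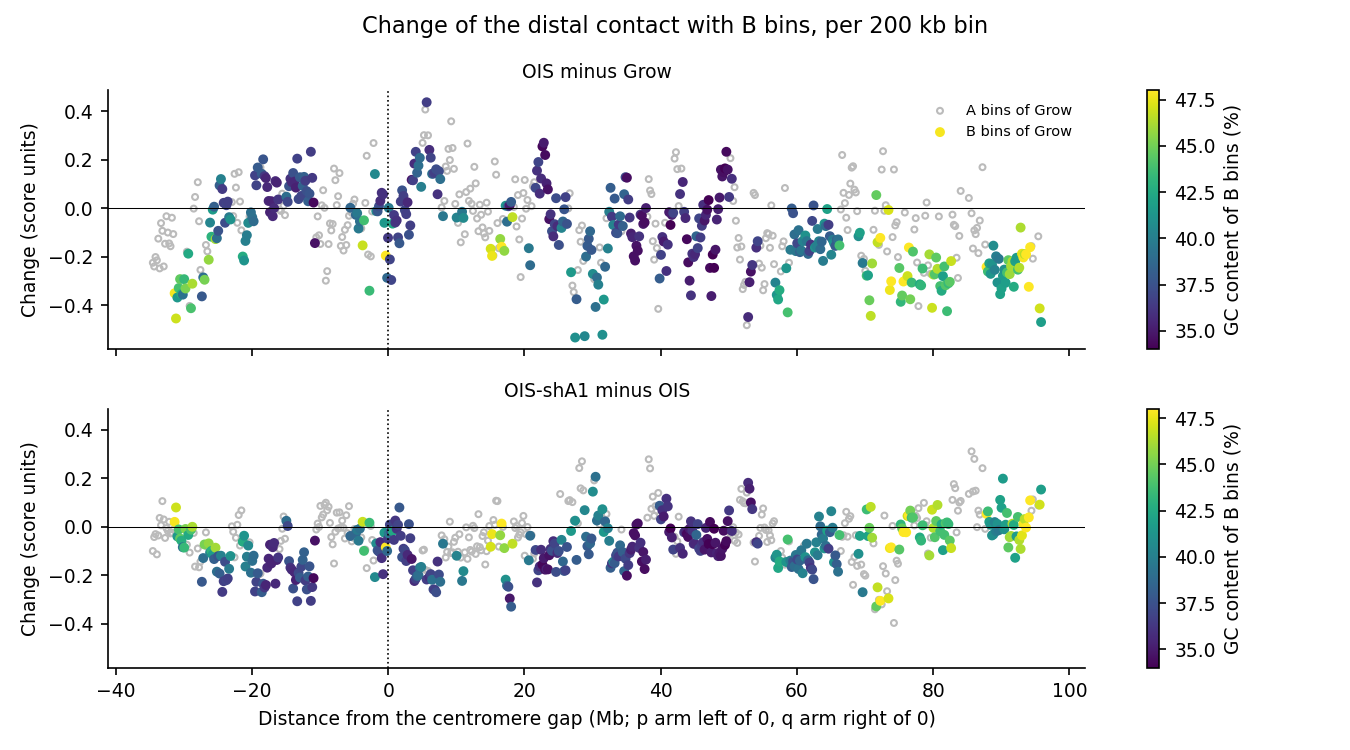
Change of the mean distal contact with B bins, in score units, for each kept bin of chromosome 12 against its distance from the centromere gap in Mb, for OIS minus Grow (top) and OIS-shA1 minus OIS (bottom). B bins are coloured by GC content and A bins are open grey circles. In OIS minus Grow the AT-rich B bins lay on both sides of 0 and most GC-richer B bins below it, and in OIS-shA1 minus OIS most AT-rich B bins lay below 0.

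On the p arm the 3 lowest bins were chr12:3599366-3800566, chr12:5803367-5998913 and chr12:5602408-5803366, with -0.454, -0.412 and -0.402 in OIS minus Grow. They overlap PRMT8 and CRACR2A, then ANO2, then ANO2 and NTF3 (neurotrophin 3), and none holds the start of a protein-coding gene. The first had a contact score with B of 0.304 in Grow, 0.293 in Grow-shA1, -0.150 in OIS and -0.0702 in OIS-shA1, so both maps of senescent cells were below 0 and both of growing cells above it. On the q arm the 3 lowest bins were chr12:65196047-65400672, chr12:66591921-66802457 and chr12:69199429-69403394, with -0.532, -0.527 and -0.521.

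The first of these q arm bins, over TBC1D30, had 0.477 in Grow, 0.402 in Grow-shA1, -0.0555 in OIS and -0.0298 in OIS-shA1. The second holds the start of HELB (DNA helicase B) and also overlaps IRAK3 and GRIP1, and the third holds the starts of CPM (carboxypeptidase M) and MDM2. All 3 were B in Grow and A in OIS and OIS-shA1, and their OIS-shA1 minus OIS differences were 0.0257, 0.0691 and 0.0729. These bins were picked for a low OIS value, which that difference subtracts, so its sign and size carry no separate weight. The mean over the distal B partners hides a wide spread, with an SD over the 344 partners of the first bin of 0.718.

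The 3 highest p arm bins were chr12:32600061-32800480 over FGD4, chr12:23399545-23599745, which overlaps no gene, and chr12:31597896-31799950 with the start of DENND5B, at 0.269, 0.234 and 0.217. The gene-free bin, with 36.5% GC, had 0.488 in Grow, 0.380 in Grow-shA1, 0.722 in OIS and 0.417 in OIS-shA1, and its OIS-shA1 minus OIS difference was -0.305. On the q arm the highest were the adjacent bins chr12:43400014-43600741 and chr12:43199972-43400013, with no gene, and chr12:47000957-47198951 over SLC38A4, an amino acid transporter, at 0.437, 0.407 and 0.359. The first of them had 0.0674 in Grow, 0.0106 in Grow-shA1, 0.505 in OIS and 0.288 in OIS-shA1. These bins were picked for a high OIS value, which is also subtracted in OIS-shA1 minus OIS, so the sign of that difference carries no separate weight. Just inside the choice, the third highest p arm bin stood at 0.217 and the next bin, just outside, at 0.205, and on the q arm the third highest stood at 0.359 and the next at 0.302.

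Runs of at least 5 adjacent bins of one compartment in Grow were taken as domains and named by arm, compartment and order from the p arm end (pB1 is the first B domain of the p arm). There were 41, of which 17 were A and 24 B. Within the q arm the lowest 3 of 334 domain pairs all joined qB10 (chr12:81000674-88001537, 35.3% GC, 35 bins and 15 protein-coding genes) to a GC-richer B domain farther out on the arm. With qB13 (chr12:108002321-109001706, 44.6% GC, including PRDM4) the mean score was 0.463 in Grow, 0.793 in Grow-shA1, -0.722 in OIS and -0.316 in OIS-shA1, a difference of -1.19 between OIS and Grow (SD over 151 pairs 0.556). With qB16 and qB15 the differences were -1.10 and -1.10, and with qB17 (chr12:125598062-131607895, which holds TMEM132B, TMEM132C and TMEM132D) -0.882. These 4 contacts were above 0 in both maps of growing cells and below 0 in OIS. The mean compartment scores of qB13, qB15, qB16 and qB17 were -0.0368, -0.0325, -0.0323 and -0.0393 in Grow. In OIS they were nearer the boundary, at -0.0155, -0.0154, -0.0147 and -0.0287, while qB10 had -0.0480 in Grow and -0.0479 in OIS. The highest 3 pairs of the q arm joined A and B domains instead: qB9 with qA7 (0.880), and qA1 with qB5 (0.781) and with qB6 (0.665).

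Some GC-rich B domains of the outer q arm met each other more in OIS. qB13 and qB15 had 1.47 in Grow, 1.34 in Grow-shA1, 1.97 in OIS and 1.47 in OIS-shA1 (25 pairs), and qB14, with the limb and heart factor TBX5, and qB15 had 1.02 in Grow, 0.916 in Grow-shA1, 1.67 in OIS and 1.21 in OIS-shA1 (30 pairs). qB13 and qB15 have 5 bins each and are 0.999 and 1.00 Mb long, so the pairs inside them are few and not distal. Inside qB13 the mean score of its own pairs was 0.275 in Grow, 0.0902 in Grow-shA1, 1.02 in OIS and 0.501 in OIS-shA1, and inside qB15 0.162 in Grow, 0.132 in Grow-shA1, 0.818 in OIS and 0.494 in OIS-shA1. These contacts are named for their higher OIS score, and OIS-shA1 minus OIS, which subtracts that score, was -0.502, -0.457, -0.521 and -0.324.

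Some AT-rich B domains of the p arm met AT-rich B domains of the q arm more in OIS. The 3 highest of 209 domain pairs between the arms were pB5 with qB10, pB6 with qB10 and pB5 with qB8, all B-B. pB5 (chr12:16199353-18798451, 36.0% GC, with PIK3C2G) and qB10, 67.0 Mb apart, had 0.480 in Grow, 0.214 in Grow-shA1, 1.13 in OIS and 0.727 in OIS-shA1, a difference of 0.654 between OIS and Grow (SD over 431 pairs 0.581). pB6 (chr12:19804167-24199393, with the liver transporter genes SLCO1B1 and SLCO1B3) and qB10 had 0.361 in Grow, 0.164 in Grow-shA1, 0.996 in OIS and 0.550 in OIS-shA1. Their OIS-shA1 minus OIS differences were -0.407 and -0.446, and pB5 with qB8 had -0.504. In growing cells, Grow-shA1 minus Grow of these 3 pairs was -0.266, -0.197 and -0.318. On the q arm, qB10 met qB4 and qB2 more in the same way, with OIS minus Grow at 0.657 and 0.642 and OIS-shA1 minus OIS at -0.448 and -0.490. All these domain pairs are named for a high OIS score, which OIS-shA1 minus OIS subtracts, so the sign of that difference carries no separate weight.

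**Figure D5:**
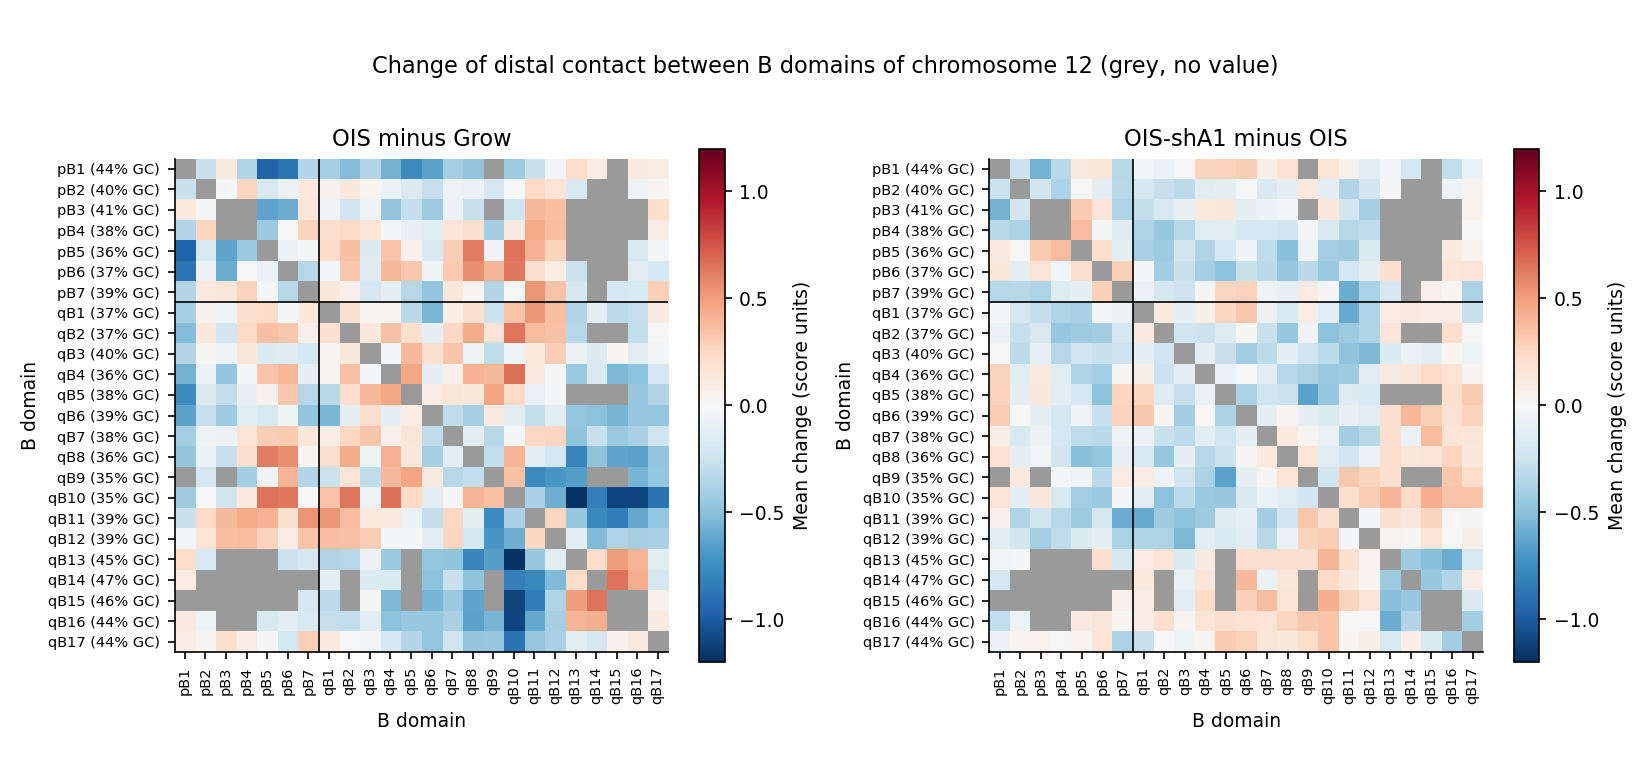
Mean OIS minus Grow (left) and OIS-shA1 minus OIS (right) score difference of distal pairs between the 24 B domains of chromosome 12, in order along the chromosome with their GC content, where black lines separate the arms and grey cells have no value. In OIS the AT-rich domain qB10 was higher with pB5, pB6, qB2 and qB4 (red) and lower with the domains qB13 to qB17 (blue), down to -1.19. The right panel is coloured on the same scale.

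Near the p arm end, pB1 (chr12:3398772-5195601, 43.9% GC, with CCND2 and RAD51AP1) had 0.427 in Grow, 0.750 in Grow-shA1, -0.533 in OIS and -0.423 in OIS-shA1 with pB5 and an OIS minus Grow difference of -0.960 (SD 0.562, 117 pairs). Its contacts with qB5 and qB6 were the lowest between the arms, at -0.765 and -0.647. Within pB1, which is 1.80 Mb long so that its own pairs are not distal, the mean score was 0.113 in Grow and 0.595 in OIS. The mean compartment score of pB1 was -0.0308 in Grow and -0.00883 in OIS. The lowest pair of the p arm joined an A to a B domain, pA4 and pB7 beside the centromere, at -0.682 in Grow, -1.65 in OIS and -1.44 in OIS-shA1. Of the domain pairs, 79 of 128 B-B pairs within the q arm and 14 of 20 within the p arm were lower in OIS than in Grow, and 48 of 100 between the arms were higher, so the B-B pairs between the arms were divided almost evenly. A-B pairs were lower in OIS in 90 of 137 cases within the q arm, 22 of 27 within the p arm and 37 of 67 between the arms. These domain pairs share the same 41 domains, so they are not independent, and no such count over other chromosomes is given. Over all distal pairs, the B-B difference of -0.0960 was near the median of 23 chromosomes (-0.0974). The A-B difference of -0.0499 was less negative than the median of -0.122.

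qB9, with SYT1 and 35.5% GC, met the A domain qA7 (with KITLG, the ligand of the receptor KIT) with 0.437 in Grow, 0.0305 in Grow-shA1, 1.32 in OIS and 1.13 in OIS-shA1, and its mean compartment score was above 0 in OIS. qA5, the A domain of HMGA2 and IRAK3, has 5 bins over 0.990 Mb, so its own pairs are few and not distal. Their mean score was 1.09 in Grow, 0.956 in Grow-shA1, 0.0898 in OIS and -0.157 in OIS-shA1. HMGA2 codes for the close relative of HMGA1. The contact of its bin with B was -0.685 in Grow, -0.684 in Grow-shA1, -0.756 in OIS and -0.485 in OIS-shA1, and it was A in all 4 maps.

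The 87 genes of 6 lists lie in 78 bins of chromosome 12. In OIS minus Grow their bins had a median difference of contact with B of -0.0915, beside -0.0892 over all kept bins, with 1 bin past 0.2 upwards (4.57% of all kept bins were) and 20 downwards (27.0%). The median and the downward count thus sat near the background. The values are contacts and not expression.

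Of 15 bins of inflammatory and immune signalling genes, 7 were past 0.2 downwards and 1 upwards (27.0% and 4.57% of all kept bins were). Their median was -0.162, beside -0.0892 over all kept bins. The medians of A and B bins by arm ran from -0.135 (q arm B) to -0.00519 (p arm B). Of the 15 bins 8 were A in Grow, and the gap was not tested. The lowest was the bin of OAS1 and OAS3, interferon-induced sensors of double-stranded RNA (chr12:113343661-113371024 for OAS1), with a contact with B of 0.603 in Grow, 0.631 in Grow-shA1, 0.243 in OIS and 0.237 in OIS-shA1. The highest was the bin of IRAK4, a kinase of Toll-like receptor signalling (chr12:44152747-44192110), with 0.440 in Grow, 0.286 in Grow-shA1, 0.649 in OIS and 0.454 in OIS-shA1. IL22 and IL26, cytokine genes of T cells, share the bin of this list that passed from B to A, with a score of -0.0263 in Grow and 0.0277 in OIS.

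Of 18 bins of cell cycle, arrest and survival genes, 4 were past 0.2 downwards (27.0% of all kept bins were) and 0 upwards. Their median was -0.0566. MDM2 (chr12:69201957-69239324), the ubiquitin ligase that restrains p53, had the lowest value of the list, with 0.0865 in Grow, 0.0715 in Grow-shA1, -0.435 in OIS and -0.362 in OIS-shA1. Its bin and that of RAD51AP1, a homologous recombination factor, passed from B to A, with scores of -0.0210 in Grow and 0.00152 in OIS for the latter. RACGAP1, a cytokinesis factor, had the highest, 0.171, over 11.2% of its possible B partners.

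Of 11 bins of fibroblast matrix and growth factor genes, 2 were past 0.2 downwards (27.0% of all kept bins) and 0 upwards (median -0.0532). These were the bins of WIF1, a secreted inhibitor of Wnt signalling, and EPYC, which both passed from B to A. WIF1 (chr12:65444406-65515085) had 0.399 in Grow, 0.315 in Grow-shA1, 0.0243 in OIS and -0.112 in OIS-shA1. IGFBP6, which binds insulin-like growth factors, had the highest difference, 0.193, over 14.2% of its B partners. The bin of the collagen-binding proteoglycans DCN, LUM and KERA was A in all 4 maps and differed by 0.0639.

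Of 15 bins with starts of genes listed as neuronal, most of them long, 5 were past 0.2 downwards (27.0% of all kept bins were). Upwards there were 0, and the median was -0.111. As all but 1 of these bins are B, the values to set beside that median are those of p arm B bins (-0.00519) and q arm B bins (-0.135). SLC6A15, a neutral amino acid transporter and the shortest gene of the list (chr12:85253270-85307408), was the lowest, with 0.779 in Grow, 0.676 in Grow-shA1, 0.418 in OIS and 0.313 in OIS-shA1, and MGAT4C, a glycosyltransferase gene, the highest, at 0.165. The bins of NAV3 and SYT1 passed from B to A, but the NAV3 bin was B again in OIS-shA1, with a score of -0.00654.

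Of 12 bins of tissue-specific gene family clusters, 0 were past 0.2 downwards (27.0% of all kept bins were) and 0 upwards in OIS minus Grow. The median was -0.0478. In OIS-shA1 minus OIS, 4 were past 0.2 downwards (9.32% of all kept bins were). The median there was -0.158, and as all but 1 of these bins are B, the values to set beside it are the medians of p arm B bins (-0.123) and q arm B bins (-0.0688). SLCO1B3, a bile acid and drug transporter of hepatocytes (chr12:20963636-21069845), had 0.704 in Grow, 0.582 in Grow-shA1, 0.850 in OIS and 0.596 in OIS-shA1. The bins of KRT5 and KRT1, keratins of stratified epithelium, passed from B to A, and KRT1 had the lowest difference of the list, -0.196.

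Of 9 bins of transcription and chromatin factor genes, 2 were past 0.2 downwards (27.0% of all kept bins were) and 0 upwards. The median was -0.0708, and none of these bins changed compartment between Grow and OIS. The lowest was NANOG, a pluripotency factor (chr12:7940390-7951742), with 0.504 in Grow, 0.429 in Grow-shA1, 0.210 in OIS and 0.138 in OIS-shA1, and the highest GLI1, an effector of Hedgehog signalling, at 0.117 over 20.2% of its B partners.

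A network of the 1% of distal pairs with the largest positive difference (1302 edges) was built for each comparison, and its k-core is the part in which every bin keeps at least k partners. For OIS minus Grow the largest k was 8, in a core of 27 bins, all on the q arm between chr12:59599932 and chr12:88600012. Of these, 24 were B bins in Grow (88.9%, beside 60.4% of all kept bins of the chromosome), and the mean GC content was 35.1% against 40.6% over the chromosome. The B bins of the chromosome had a median GC content of 38.4%. In all, 20 of the core bins held no start of a protein-coding gene, beside 206 of 387 B bins and 274 of 641 kept bins, and the others included the muscle factors MYF5 and MYF6, the neurotensin gene NTS, the potassium channel gene KCNC2 and the ciliary gene CEP290. Over the whole network B-B pairs made up 45.3% of the edges and 44.4% of all pairs. The p arm took 1.77% of the edges although 9.38% of the pairs lie within it. Its share was below 9.38% in the other comparisons too. It was 2.38% in OIS-shA1 minus Grow-shA1, 8.37% in OIS-shA1 minus OIS and 4.99% in Grow-shA1 minus Grow. OIS-shA1 minus Grow-shA1 gave a largest k of 4, and OIS-shA1 minus OIS and Grow-shA1 minus Grow gave 3 each, with cores of 150, 365 and 390 bins. After division by the SD at the same distance the largest k of OIS minus Grow was 3, and with 0.5% of pairs it was 5, so the density of the core depended on these settings.

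Over blocks of 5 by 5 bins, the RAS difference with the hairpin had a slope of 0.714 on the RAS difference without it (r = 0.776, 6900 blocks), where the 2 differences have no map in common. The slope was 0.767 within the p arm (553 blocks), 0.748 within the q arm (3924 blocks) and 0.541 between the arms (2492 blocks). Error in the first difference lowers such a slope, and over single pairs it was 0.373.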

How the data were processed

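Hi-C contact maps of 4 conditions were analysed. Per the labels and methods, the authors cut chromatin with HindIII, aligned reads to hg19 with HiC-Pro, balanced the 200 kb matrices by ICE and corrected them for distance. The deposited values are 1 score per pair of bins on one chromosome, whose log base and prior are not given in the sources used here, so differences stay in score units. The deposited bin list holds other values, the bin coordinates, whose chromosome ends equal those of GRCh37 for 24 of 24 chromosomes. Each file pools the replicates of its condition, so leaving out a replicate was not possible.

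Bins with values for at least 50% of all bins of their chromosome in each map were kept (13567 of 14310 on the 22 autosomes and X). Compartments were the sign of the first principal component, unlisted pairs at 0, positive toward protein-coding genes (GENCODE v44 lifted to GRCh37), and those of Grow were used for all maps. Pairs over 2 Mb apart counted as distal, and a bin's contact with B needed 10 pairs. Named bins are the 3 highest and 3 lowest per arm among bins with at least 50% of distal pairs valued. Of the listed genes, 2 are not reported here. The others were placed by their start of transcription, and per list the highest, the lowest and the bins that changed compartment are named. The members, lists and rules were chosen with earlier results of these data known, and domains named beyond them, the GC split and its alternatives after values were seen. Functions were tested on simulated data. Python 3.11.15, numpy 2.4.6, pandas 2.3.3 and networkx 3.6.1 were used.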

Additional observations from a re-analysis of the deposited data

Results flagged for a closer look

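The compartment strength of the whole of chromosome 12 was 0.00466 score units higher in OIS than in Grow, and OIS-shA1 minus Grow-shA1 was -0.0298, the opposite direction. The gap between these differences was -0.0345. It was picked out because the single map pairs with and without the hairpin pointed opposite ways, and the difference was not tested, with 1 map per condition. Both differences lie within the tolerance of 0.03 score units. They shared a sign after division by the SD (-0.170 and -0.137) and with unlisted pairs as 0 (-0.117 and -0.116). The same held with the compartments of each map (0.0842 and 0.0593) and over the 20% of bins at either end (0.333 and 0.297). In the other alternatives both held within the tolerance.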

How the results depend on the processing

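Files pool the replicates of a condition, so leaving out a replicate was not possible. No paired analysis was possible because the maps carry no replicate numbers. A value was taken to hold within a factor of 1.5 or 0.03 score units, and to turn only from at least 0.03 (strength) or 0.2 (a bin). Strength held in 78 alternatives, moved in 41 and turned in 9. With each map divided by its SD at the same distance, the strength difference OIS minus Grow came to -0.170 (whole chromosome), -0.0802 (p arm), -0.196 (q arm), -0.177 (between arms), while OIS-shA1 minus Grow-shA1 came to -0.137 (whole chromosome), -0.0965 (p arm), -0.150 (q arm), -0.147 (between arms), while OIS-shA1 minus OIS came to 0.0434 (whole chromosome), -0.00465 (p arm), 0.0838 (q arm), -0.00296 (between arms). With unlisted pairs counted as 0, the strength difference OIS minus Grow came to -0.117 (whole chromosome), -0.0110 (p arm), -0.170 (q arm), -0.0652 (between arms), while OIS-shA1 minus Grow-shA1 came to -0.116 (whole chromosome), -0.102 (p arm), -0.164 (q arm), while OIS-shA1 minus OIS came to -0.00879 (q arm), while Grow-shA1 minus Grow came to -0.0395 (whole chromosome), -0.0152 (q arm), -0.0794 (between arms). With the compartments of each map in place of those of Grow, the strength difference OIS minus Grow came to 0.0842 (whole chromosome), 0.0742 (q arm), 0.0736 (between arms), while OIS-shA1 minus Grow-shA1 came to 0.0593 (whole chromosome), 0.0591 (p arm), 0.0682 (q arm), 0.0266 (between arms), while OIS-shA1 minus OIS came to -0.0213 (p arm). Over the 20% of bins at either end of the Grow scores, the strength difference OIS minus Grow came to 0.333 (whole chromosome), 0.778 (p arm), 0.348 (q arm), 0.143 (between arms), while OIS-shA1 minus Grow-shA1 came to 0.297 (whole chromosome), 0.487 (p arm), 0.328 (q arm), 0.0851 (between arms), while OIS-shA1 minus OIS came to -0.0872 (whole chromosome), -0.311 (p arm), -0.0479 (q arm), -0.178 (between arms), while Grow-shA1 minus Grow came to -0.0507 (whole chromosome), -0.0191 (p arm), -0.0280 (q arm), -0.121 (between arms). Without bins within 2 Mb of the gap or the ends, the strength difference OIS minus Grow came to 0.0349 (p arm), while OIS-shA1 minus Grow-shA1 came to -0.0324 (p arm), while OIS-shA1 minus OIS came to -0.0207 (p arm). With scores at least 0.01 from 0, the sign changes numbered 23, 24, 0 and 0 in the same order of comparisons. The largest k of OIS minus Grow was 5 with 0.5% of pairs and 3 after division by the SD, and with 2% of pairs the other 3 comparisons had 7 (senescent against growing with the hairpin), 5 (hairpin in OIS) and 5 (hairpin in Grow). The slope was 0.373 over single pairs. In the GC split of B bins, whose alternatives were chosen after seeing the data, OIS minus Grow of AT-rich pairs was 0.0954 after division by the SD and 0.10 when split at 40% GC, and that of GC-richer pairs -0.189 and -0.0131, or -0.0116 with a common centring. OIS-shA1 minus Grow-shA1 was 0.0497 for AT-rich pairs at 40% GC and -0.0786 for GC-richer pairs with a common centring, where mixed pairs had 0.0537 in OIS-shA1 minus OIS. For the hairpin in growing cells a common centring gave -0.0884 (AT-rich), 0.0467 (mixed) and -0.0243 (GC-richer), and -0.130 for GC-richer pairs after division by the SD. The other 60 values of the split held. Class means held in 255 alternatives and moved in 129, of which 37 of 48 moved with a common centring, 27 of 48 over the 20% of bins at either end and 26 of 48 after division by the SD, and contacts of named and listed bins held in 441 and moved in 274. The cause of these differences was not tested. The analysed files hold no read counts, and the share of pairs with a value, lowest for A-B pairs in the senescent maps, limits the class means.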
